A study of Mus musculus with 36 samples.

Results

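Macrophages treated with bacterial lipopolysaccharide (LPS) in the presence of 10 µM melatonin were compared with macrophages treated with LPS alone, to ask which transcripts of the LPS response this middle dose altered. The 6 libraries were chosen by their labels alone, 3 per group, out of 36 libraries in the series, and no measured value entered the choice. Of 53465 genes in the count table, 16988 had enough reads to be tested. All cells were RAW264.7, a mouse macrophage line, labelled as wild type and as macrophages. The first group received melatonin at 10 µM for 30 min before LPS at 10 µg/mL was added, and the second received the same LPS with no melatonin, both being collected after 12 h. Further libraries from the same cells are used below, with 3 libraries per group. Some groups received LPS with melatonin at 0.1, 1, 100 or 1000 µM. Others received melatonin without LPS at 0.1, 1, 10, 100 or 1000 µM, or solvent alone. A single cell line was used. Whether replicates were cultured separately is not stated in the labels, and the p-values therefore speak only of the variation among libraries, some or all of which may be technical.

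LPS is the outer membrane lipid of Gram-negative bacteria. It is recognised by Tlr4 with Cd14 and drives NF-kB, MAP kinase and interferon signalling, so that macrophages switch on cytokines, chemokines, prostaglandin synthesis and acute phase proteins, and leave the cell cycle. Melatonin is the pineal hormone of the night, a membrane-permeant indoleamine that has also been studied as an antioxidant and a modulator of inflammation. RNA was measured in bulk, so fewer cells of a type and less RNA per cell cannot be told apart.

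Library totals were 5865231 to 7041163 counts with 10 µM melatonin and LPS and 7021915 to 7237716 with LPS. CPM is counts scaled to library size, by the trimmed mean of M-values (TMM) except in sums over cell markers. Those sums were scaled to the library total alone. On that scale 9 macrophage markers, such as Cd68, Csf1r and Cd14, summed to 13190.5 to 13420.3 CPM with 10 µM melatonin and LPS. With LPS they summed to 12287.5 to 12513.8 CPM. TMM factors were 0.958 to 0.974 with 10 µM melatonin and LPS and 0.925 to 0.95 with LPS, so TMM scaling would narrow this difference. The 9 markers did not all move with their sum, and 0 passed the edgeR test described below. With TMM scaling Cd14 averaged 1759.6 CPM with 10 µM melatonin and LPS and 2313.6 CPM with LPS. In a fit of only the 6 libraries Csf1r was higher (log2 fold change 0.42), while Cd14 (-0.39) and Fcgr1 (-0.44) were lower. Of the markers of other cells, all 5 B cell genes, 4 of 6 neutrophil genes (Ly6g, S100a8, S100a9 and Elane) and 4 of 5 epithelial genes were at 0 in the 6 libraries. Replicates differed by more than sampling noise, with a chi-square per degree of freedom of 9.12 to 10.5 among the 10 µM libraries and 14.3 to 14.9 among the LPS libraries, so each was kept as a library of its own.

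At an adjusted p below 0.05 (edgeR quasi-likelihood test, Benjamini-Hochberg adjustment), 63 genes differed, which is 0.371% of those tested. With melatonin 33 were higher (0.194%) and 30 lower (0.177%), and at an unadjusted p below 0.05 there were 1666. Effects were modest: 24 of the 63 reached 2-fold, the median log2 fold change was 0.94 among the higher genes and -0.86 among the lower, and the median over all tested genes was 0. In 32 of the 33 higher genes and all 30 lower genes the 3 libraries of one group lay beyond the 3 of the other, an arrangement seen in 8.42% of all tested genes in the higher and 8.5% in the lower direction. The number of calls depended on which libraries shared the fit. Without 2 libraries of melatonin alone, replicate 3 at 1 mM and replicate 1 at 1 µM, whose labels an earlier analysis of these data had doubted, 137 genes passed (72 higher, 65 lower), and these included all 63. A fit of only the 6 compared libraries called 374 (145 higher, 229 lower), among them 57 of the 63. Leaving out any one library of either group gave 17 to 40 calls, the fewest without replicate 2 of LPS with 10 µM melatonin (17), then without its replicate 1 (21) or 3 (31), or without LPS replicate 3 (28), 2 (35) or 1 (40). Of the 63, 8 were called in all 12 other fits tried (other scaling, filter, block, tool or libraries), namely Flna, Ftl1-ps1, Lars2, CT010467.1, Gm12715, Gm15564, Gm17709 and Gm23935, and 55 were lost in at least one fit that left out a library, while all 63 kept their sign.

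**Figure D1:**
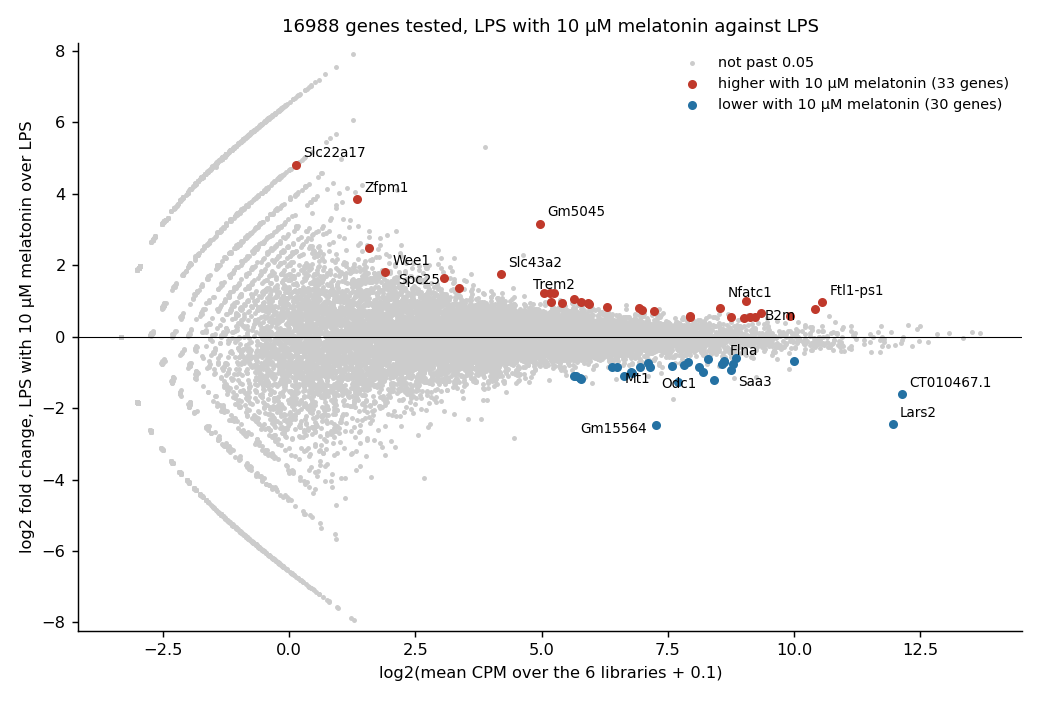
Each point is 1 of the 16988 genes tested. The x axis is the log2 of the mean CPM over the 6 libraries plus 0.1, and the y axis the log2 fold change of LPS with 10 µM melatonin over LPS. The 33 higher genes (red) and 30 lower genes (blue) past an adjusted p of 0.05 are spread over low and high levels, and the lowest at a high level are Lars2 and CT010467.1.

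By biotype, 35 of the 63 calls were protein-coding genes (24 higher, 11 lower), 22 were pseudogenes (7 higher, 15 lower) and 6 belonged to other classes (2 higher, 4 lower). Pseudogenes were called more often than protein-coding genes, 0.789% of 2788 against 0.297% of 11780 tested, a difference that was not itself tested. Pseudogene reads made up 26.4 to 26.6% of counts with 10 µM melatonin and LPS and 25.9 to 26.3% with LPS. Such reads can belong to the parent gene, so the pseudogene calls are uncertain. Of the 63 genes, 15 also overlap a tested gene on the opposite strand, and whether counting used strand is not given in the sources used here.

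Saa3, Mt1 and Odc1 were among the genes that fell with melatonin. Saa3, a serum amyloid A protein that macrophages release upon LPS, had 290.2, 305.7 and 290.4 CPM in the 3 libraries with 10 µM melatonin and LPS, against 590.2, 594.1 and 506.7 CPM with LPS. The groups lay far apart, and the log2 fold change was -0.93 ± 0.21 (SE, adjusted p = 0.0252 by edgeR). The metallothionein Mt1, a zinc-binding protein of metal and oxidative stress, had 55.7, 69.2 and 69.0 CPM with melatonin, against 113.5, 107.4 and 125.2 CPM without it. Here too no library overlapped (-0.84 ± 0.20, adjusted p = 0.0472). Odc1, ornithine decarboxylase, the first step of polyamine synthesis, stood at 137.7, 145.7 and 131.2 CPM against 249.5, 226.6 and 258.9 CPM (-0.83 ± 0.18, adjusted p = 0.0236). These are calls near the threshold. Leaving out 1 library at a time, the adjusted p of Saa3 went up to 0.117, being lost without any one library other than LPS replicate 3, that of Odc1 up to 0.136, being lost without any one other than LPS replicate 2, and that of Mt1 up to 0.297, being lost without any one of the 6. All 3 kept their sign throughout.

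The promoters of 2 of these genes are shown because they carry binding motifs of factors known to act on them, with the promoter of B2m, a gene that was higher, for comparison. Each window runs from 250 bases before to 50 bases after the gene's start (RefSeq, GRCm38.p6), 5′ to 3′ on the gene's strand. Capitals mark matches, on either strand, to the C/EBP motif TTNNGNAA in Saa3 (chr7:46715627-46715926, minus strand), to the metal response element TGCNCNC in Mt1 (chr8:94178839-94179138, plus strand) and to the interferon-stimulated response element (GAAA, any 2 bases and GAAA again) in B2m (chr2:122147437-122147736, plus strand).
Saa3: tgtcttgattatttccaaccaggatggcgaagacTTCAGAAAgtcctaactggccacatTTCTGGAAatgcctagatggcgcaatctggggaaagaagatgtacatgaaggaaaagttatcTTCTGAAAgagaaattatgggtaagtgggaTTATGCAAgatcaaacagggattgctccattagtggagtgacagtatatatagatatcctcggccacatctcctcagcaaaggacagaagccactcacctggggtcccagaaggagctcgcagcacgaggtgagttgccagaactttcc
Mt1: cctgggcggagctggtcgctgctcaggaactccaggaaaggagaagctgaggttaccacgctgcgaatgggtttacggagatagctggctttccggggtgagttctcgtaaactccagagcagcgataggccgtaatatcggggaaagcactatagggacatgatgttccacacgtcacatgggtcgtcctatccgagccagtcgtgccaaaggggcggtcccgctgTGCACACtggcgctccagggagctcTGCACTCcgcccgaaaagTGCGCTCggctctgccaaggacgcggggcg
B2m: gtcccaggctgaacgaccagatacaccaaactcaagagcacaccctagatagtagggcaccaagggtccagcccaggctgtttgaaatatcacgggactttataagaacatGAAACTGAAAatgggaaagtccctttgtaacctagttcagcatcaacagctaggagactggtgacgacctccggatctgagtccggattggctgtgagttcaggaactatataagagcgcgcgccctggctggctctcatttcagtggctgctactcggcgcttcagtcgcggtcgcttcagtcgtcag
The Saa3 window held 4 C/EBP matches and the Mt1 window 3 metal response elements, while B2m held 1 interferon element. Saa3 also held 1 interferon element, which overlaps the C/EBP match TTCTGAAA and so is partly in capitals. B2m also held 1 C/EBP and 1 NF-kB match, which are not in capitals. Over all 32851 promoter windows, 40.7% held a C/EBP match, 51.0% a metal response element and 3.44% an interferon element, so that the first pair of motifs is common. A match describes the letters and not a bound site. Among the 18 higher and 12 lower genes with a promoter in the table, the metal motif was in 11 of 18 and 9 of 12, the C/EBP motif in 5 of 18 and 6 of 12, and the interferon motif in 2 of 18 and 1 of 12. The NF-kB motif was in 3 of 18 and 3 of 12, beside 4.51% of all promoter windows. Whether any of these shares differ was not tested.

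Flna and Dst fell as well. Flna (chrX:74223461-74249820, mm10), the actin crosslinker filamin A, had 265.5, 301.1 and 282.9 CPM with 10 µM melatonin and LPS, against 446.3, 475.7 and 509.5 CPM with LPS. Its log2 fold change was -0.75 ± 0.12 (adjusted p = 0.000984), and it kept its call without any one library. Dst, the cytolinker dystonin, had 340.8, 317.6 and 323.8 CPM against 549.0, 552.8 and 554.0 CPM (-0.75 ± 0.14, adjusted p = 0.00557). In the list of actin and adhesion genes these 2 of 22 tested members fell and 0 rose, where 0.177% of all tested genes fell. Of the 22, 19 had a fold change below 0, beside 49.7% of all genes, and the list's median was -0.14, beside 0 for all genes. The talin gene Tln1, which links integrins to actin, had 604.1, 612.7 and 677.5 CPM against 1007.1, 942.8 and 992.3 CPM but did not pass (-0.64 ± 0.18, adjusted p = 0.124); without the 2 doubted libraries it did (0.0198). Fblim1, a filamin-binding adaptor of adhesion sites, was one of the genes that rose, with 14.6, 14.9 and 8.16 CPM against 4.85, 2.62 and 4.47 CPM (1.65 ± 0.38, adjusted p = 0.0312). Its call was kept in only 1 of the 6 fits that left out a library (up to 0.212). It was also lost in a fit of only the 6 libraries (0.123).

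The lowest fold changes at a high level were those of Lars2 and of transcripts with ribosomal RNA annotation. Lars2 (chr9:123366927-123462666), the mitochondrial leucyl-tRNA synthetase gene, had 1399.2, 1051.1 and 1234.8 CPM with 10 µM melatonin and LPS and 6298.1, 5452.6 and 8258.9 CPM with LPS (-2.44 ± 0.32, adjusted p = 3.01e-05). CT010467.1, annotated as rRNA, had 2923.5, 1813.1 and 1929.9 CPM against 6599.9, 5847.3 and 7806.1 CPM (-1.60 ± 0.26, adjusted p = 0.000984), and Gm15564, an antisense RNA across Parp9 and Kpna1, was lower by a similar margin (-2.48 ± 0.40). The share of all counts in genes of biotype rRNA was 0.285, 0.175 and 0.186% with 10 µM melatonin and LPS, against 0.613, 0.557 and 0.722% with LPS. CT010467.1 made up nearly all of that share, so the share repeats that gene's difference and is not a separate observation. The groups did not overlap, and the exact two-sided permutation test gave p = 0.1, the smallest its 20 arrangements allow. An alternative chosen after seeing the data took the log2 rRNA share of each library as a covariate. There the fold change of Lars2 was -0.90 (adjusted p = 0.293), and only Ftl1-ps1 and Gm17709 passed among all genes. Since CT010467.1 makes up nearly all of the covariate, its own value there (-0.03, adjusted p = 0.986) was fixed in advance and shows nothing. Over the 12 fits without that covariate the adjusted p of Lars2 was at most 0.00153. Among these 6 libraries the rRNA share divides the groups in the same way as the treatment, so the effect of one cannot be told apart from that of the other.

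**Figure D2:**
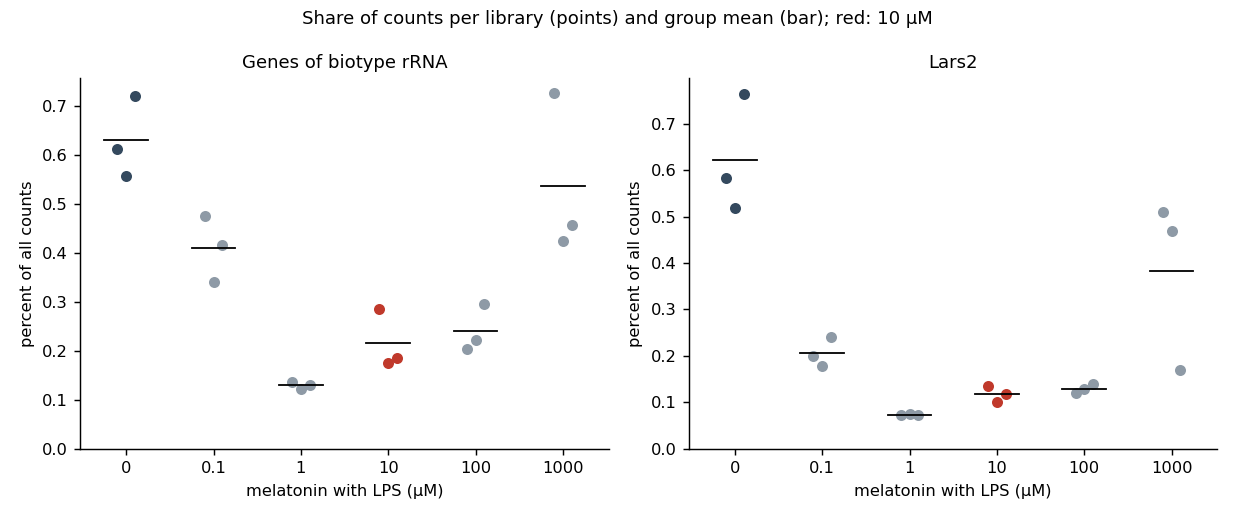
Percent of all counts in genes of biotype rRNA (left) and in Lars2 (right) for every library with LPS, by melatonin dose in µM on an axis of categories. Points are libraries, bars are means of 3, red is 10 µM. The 10 µM libraries lie below the 3 LPS libraries at dose 0 in both panels, and so do the libraries at 0.1, 1 and 100 µM.

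The other lower genes named by the rule were Hnrnpf, Ranbp2, Xpo5 and Slc36a4. Hnrnpf, a splicing factor, had 235.5, 254.5 and 253.2 CPM with 10 µM melatonin and LPS and 362.6, 385.3 and 393.2 CPM with LPS (-0.62 ± 0.12, adjusted p = 0.00844). Ranbp2, a large protein of the nuclear pore, stood at 353.2, 331.9 and 415.3 CPM against 542.6, 495.8 and 636.7 CPM (-0.61 ± 0.14), and Xpo5, the exporter of precursor microRNAs, at 46.7, 30.6 and 23.2 CPM against 57.2, 86.8 and 80.5 CPM (-1.16 ± 0.28). Slc36a4, an amino acid transporter, was lower at -0.85 ± 0.20. The adjusted p of Ranbp2, Xpo5 and Slc36a4 lay between 0.03 and 0.05, and each lost its call when some single library was left out, with values of up to 0.302 for Ranbp2, 0.334 for Xpo5 and 0.286 for Slc36a4. Hnrnpf was lost without replicate 1 (0.0990) or 2 (0.0591) of the melatonin group or LPS replicate 3 (0.0612), and Dst only without replicate 2 of the melatonin group (0.0625).

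Of the higher genes, Ftl1-ps1, a copy of the ferritin light chain gene, was the one called in all 12 other fits. Ftl1-ps1 (chr13:74399694-74407346), annotated as protein coding in the deposited table although named as a pseudogene copy, had 1942.6, 2091.7 and 1964.0 CPM with 10 µM melatonin and LPS and 969.2, 1045.8 and 1032.8 CPM with LPS. All 3 libraries with melatonin lay above all 3 without it (0.98 ± 0.14, adjusted p = 0.000259), and the call also held with the rRNA covariate. A second copy, Ftl2-ps, rose by 0.67 ± 0.16 (adjusted p = 0.0368), with 759.5, 755.3 and 864.5 CPM against 537.8, 505.9 and 452.7 CPM, but its call was lost without any one of the 6 libraries (up to 0.192). The gene itself, Ftl1, the light subunit of the iron store ferritin, was counted at 124.6, 109.9 and 134.0 CPM against 116.0, 96.5 and 95.1 CPM, overlapped between groups and did not pass (0.26 ± 0.19, adjusted p = 0.683). Reads of near-identical copies can be assigned to any of them, so the locus behind the difference is uncertain. In the list of iron handling genes, 0 of 14 tested members passed, with a median of -0.01.

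Trem2, B2m, Ifi30 and Ctsa rose. Trem2, a lipid-sensing receptor of macrophages and microglia, had 60.8, 79.0 and 96.8 CPM with 10 µM melatonin and LPS, against 56.9, 40.0 and 27.0 CPM with LPS (0.93 ± 0.20, adjusted p = 0.0159). The groups were separated by a narrow gap, and the call was lost without replicate 2 (0.0607) or 3 (0.160) of the melatonin group or replicate 2 (0.0734) or 3 (0.179) of the LPS group. B2m, the light chain of MHC class I, had 712.9, 749.1 and 690.0 CPM against 475.6, 523.0 and 457.4 CPM (0.56 ± 0.13, adjusted p = 0.0426), and it was lost without any one of the 6 libraries (up to 0.200). Patl2 overlaps all of B2m on the other strand. Ifi30, a thiol reductase that unfolds antigens in lysosomes, rose by 0.96 ± 0.18, with 56.8, 75.4 and 84.3 CPM against 39.1, 41.3 and 30.5 CPM (adjusted p = 0.00339), and was lost only without LPS replicate 3 (0.0519). The lysosomal protease Ctsa stood at 168.9, 201.0 and 191.0 CPM against 115.9, 130.3 and 95.5 CPM (0.71 ± 0.14, adjusted p = 0.0102), and was lost without replicate 2 (0.0915) or 3 (0.0508) of the melatonin group or LPS replicate 3 (0.125).

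Trem2, B2m and Ctsa were each the only call in their list, while Ifi30 was in none of the lists. Antigen presentation had 1 of 18 tested members higher and 0 lower, with a median of 0.06, the lysosome list 1 of 26 higher with a median of 0.04, and macrophage receptors 1 of 23 higher with a median of -0.02. Among all tested genes 0.194% were higher and 0.177% lower, with a median of 0. Cd74, the MHC class II invariant chain, did not pass at 51.2, 46.2 and 44.1 CPM against 19.4, 29.0 and 32.2 CPM (0.81 ± 0.23, adjusted p = 0.118), nor did the lysosomal protease Ctsd at 813.9, 826.3 and 872.1 CPM against 589.3, 576.1 and 574.1 CPM (0.53 ± 0.14, adjusted p = 0.106). Without the 2 doubted libraries Ctsd passed (0.0161).

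Nfatc1, the transcription factor that drives osteoclast formation from macrophages, was higher at 451.4, 455.8 and 504.1 CPM with 10 µM melatonin and LPS, against 250.1, 271.0 and 292.1 CPM with LPS. The log2 fold change was 0.80 ± 0.18 (adjusted p = 0.0316), and the call was lost without any one of the 6 libraries (up to 0.143). In the osteoclast list 1 of 11 tested members rose and 0 fell, where 0.194% of all tested genes rose and 0.177% fell. Of the 11, 9 had a fold change above 0, while 49.7% of all genes lay below 0. The list's median was 0.41, beside 0 for all genes. Car2, the carbonic anhydrase of bone resorption, had 83.3, 90.9 and 97.4 CPM against 48.7, 60.1 and 58.0 CPM and did not pass (0.70 ± 0.26, adjusted p = 0.348). Ocstamp, a fusion protein of osteoclasts, had 4.17, 0.356 and 3.86 CPM against 0 counts in all 3 LPS libraries, just outside the threshold (adjusted p = 0.0587). The summed level of 6 osteoclast markers was 56.2 to 69.9 CPM with 10 µM melatonin and LPS and 36.9 to 61.8 CPM with LPS. These sums were scaled to the library total alone, without TMM.

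Wee1 and Spc25 were 2 further protein-coding genes among the 33 higher calls. Wee1, the kinase that holds back entry into mitosis, had 5.94, 4.80 and 6.24 CPM with 10 µM melatonin and LPS, against 1.21, 2.04 and 1.54 CPM with LPS (1.81 ± 0.42, adjusted p = 0.0368). It is covered on the other strand by a tested gene, 1600010M07Rik. Spc25, a kinetochore subunit, had 10.8, 16.7 and 16.9 CPM against 5.92, 4.51 and 6.63 CPM (1.38 ± 0.33, adjusted p = 0.0423). Both calls were lost in a fit of only the 6 libraries (adjusted p = 0.368 for Wee1 and 0.133 for Spc25). Over the 12 other fits the adjusted p reached the same 0.368 for Wee1, and 0.215 for Spc25.

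Acadm, the medium-chain acyl-CoA dehydrogenase of fat oxidation, rose by 1.22 ± 0.26, with 38.9, 59.9 and 50.9 CPM against 26.1, 19.1 and 19.0 CPM (adjusted p = 0.0159). Ucp2, an uncoupling carrier of the inner mitochondrial membrane, had 612.4, 600.8 and 595.7 CPM against 413.4, 424.7 and 417.7 CPM (0.53 ± 0.12, adjusted p = 0.0368). Sdhd, a subunit of succinate dehydrogenase, rose by 0.54 ± 0.13 and Ckb, the brain creatine kinase, by 0.82 ± 0.19. Slc43a2, a transporter of large neutral amino acids, had 30.7, 23.3 and 30.6 CPM against 5.31, 3.78 and 15.9 CPM (1.76 ± 0.39, adjusted p = 0.0252). Lyl1, a transcription factor of blood cells, Aes, a corepressor, Tmem97, a cholesterol-related membrane protein, and Tmem50a and Sssca1 rose by 0.85 to 1.22 on the log2 scale. Slc22a17, a receptor of lipocalin 2, was at 2.09, 1.96 and 1.78 CPM against 0.152, 0 and 0 CPM, a level of a single read in the LPS group for which no fold is given. Every call in this paragraph was lost in at least 1 of the 6 fits that left out a library. Aes was called in 4 of them, Acadm, Ckb and Lyl1 in 2, and Slc43a2, Tmem97 and Tmem50a in 1. Ucp2, Sdhd, Sssca1 and Slc22a17 were called in 0.

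**Figure D3:**
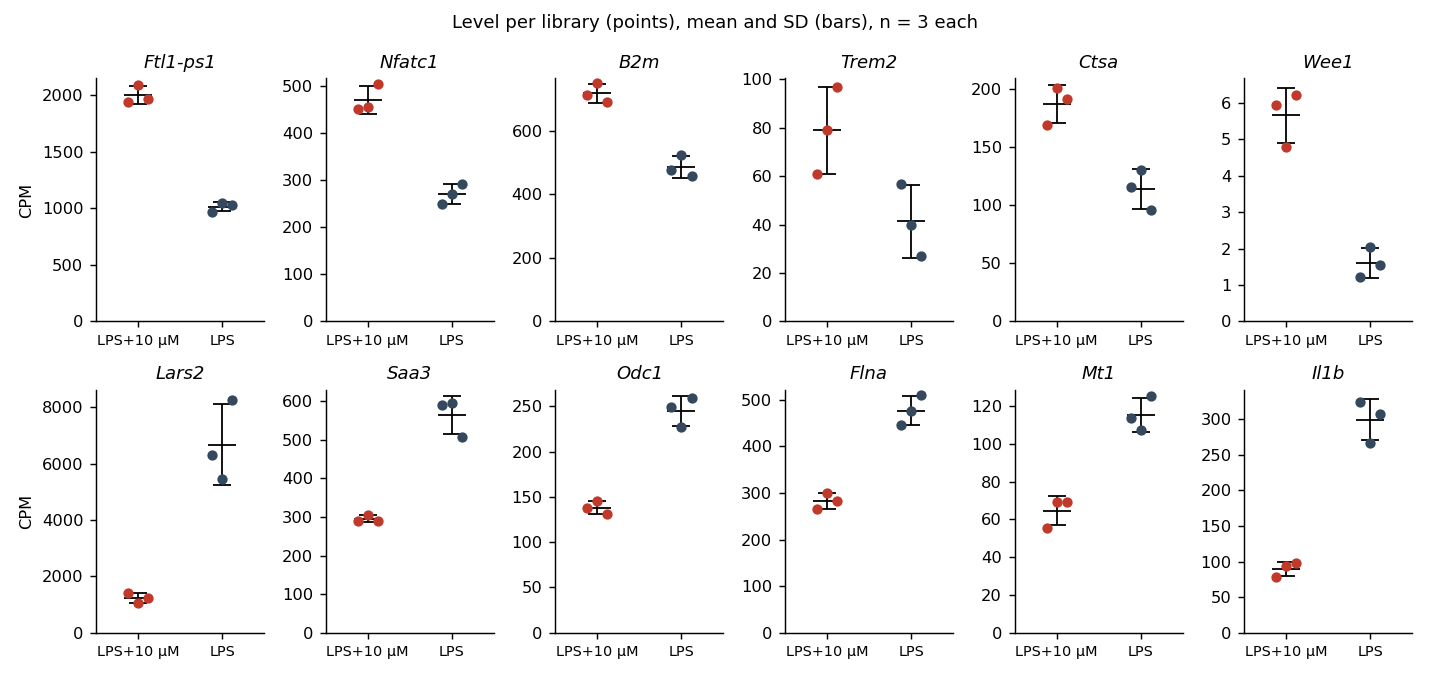
CPM in each library (points) with the mean and SD (bars, n = 3 each) for 12 genes, LPS with 10 µM melatonin on the left and LPS on the right of each panel. The upper row shows genes that rose, from Ftl1-ps1 to Wee1, and the lower row genes that fell, with Il1b, which lay apart between groups but did not pass at an adjusted p of 0.0974.

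Several cytokine genes differed by 2-fold or more without passing the threshold. Il1b, the interleukin 1 beta gene, had 78.3, 93.7 and 97.4 CPM with 10 µM melatonin and LPS, against 324.2, 267.1 and 307.0 CPM with LPS. The groups lay far apart, yet the adjusted p was 0.0974 (-1.74 ± 0.47). Il1a had 4.33, 4.27 and 7.57 CPM against 42.6, 47.9 and 24.4 CPM (-2.82 ± 0.85, adjusted p = 0.178). The receptor antagonist Il1rn had 275.0, 270.9 and 295.1 CPM against 643.5, 528.5 and 692.5 CPM (-1.15 ± 0.35, adjusted p = 0.182). Ptgs2, the inducible cyclooxygenase of prostaglandin synthesis, had 378.7, 382.0 and 391.7 CPM against 722.5, 898.6 and 887.4 CPM (-1.12 ± 0.34, adjusted p = 0.168).

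For these genes the call turned on the fit and not on the fold change. Without the 2 doubted libraries of melatonin alone, neither of which belongs to the groups compared, Il1b passed at an adjusted p of 0.0274, Il1rn at 0.00825 and Ptgs2 at 0.0167, while Il1a did not (0.0885). In the fit of only the 6 libraries all 4 passed, at 5.42e-08 for Il1b, 3.94e-07 for Il1rn, 1.41e-07 for Ptgs2 and 0.000134 for Il1a. The fold change of Il1b lay between -1.81 and -1.65 among the fits that left out a library, and over the 12 other fits its adjusted p ran from 3.31e-09 with no filter to 0.663 in DESeq2. The gene's levels in the other groups of the 36-library fit were near 0 without LPS, at 0.518 CPM with 10 µM melatonin alone and 1.36 CPM with solvent.

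Other secreted factors gave smaller differences or none that could be told from the spread. Csf3, the granulocyte colony-stimulating factor, had 79.1, 85.9 and 100.1 CPM with 10 µM melatonin and LPS, against 180.8, 176.0 and 207.6 CPM with LPS (-1.09 ± 0.31, adjusted p = 0.139). Il6 was low in both groups, at 4.82, 0.711 and 0.742 CPM against 9.56, 8.73 and 16.4 CPM (-2.45 ± 1.36, adjusted p = 0.550). Tnf overlapped between the groups, at 1050.7, 1213.1 and 1051.3 CPM against 1251.7, 1208.4 and 1282.5 CPM (-0.17 ± 0.14, adjusted p = 0.727). The chemokine Ccl3 had 4722.3, 4840.4 and 4445.3 CPM against 5547.2, 5988.6 and 5203.7 CPM (-0.26 ± 0.11, adjusted p = 0.452), and Ccl5 overlapped at 571.5, 645.4 and 601.6 CPM against 718.4, 611.0 and 751.0 CPM.

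In the cytokine list 0 of 18 tested members passed, 15 had a fold change below 0 (49.7% of all genes did), and 8 lay apart and lower, with 0 apart and higher, beside 8.5% lower and 8.42% higher among all genes. The list's median was -0.74, beside 0 for all tested genes. Chemokines had 0 of 12 past the threshold and a median of -0.11. Inflammatory enzymes and effectors had 1 of 15 lower (Saa3), where 0.177% of all tested genes were lower, and a median of -0.19. Of that list, Nos2, the inducible nitric oxide synthase, overlapped at 27.3, 32.6 and 28.2 CPM against 31.4, 30.9 and 27.6 CPM, and Acod1, the itaconate-producing enzyme, had 1042.4, 1132.3 and 1159.2 CPM against 1301.5, 1519.7 and 1533.5 CPM (-0.39 ± 0.28, adjusted p = 0.691). Sod2, the mitochondrial superoxide dismutase, lay just outside the threshold, at 470.5, 420.1 and 468.5 CPM against 604.1, 773.9 and 653.8 CPM (-0.58 ± 0.14, adjusted p = 0.0504), while the calls just inside it were Gm5402 (0.0478), Gm12183 and Gm22774.

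Over the same lists, the fit of only the 6 libraries called 4 of 17 cytokines, 3 of 10 chemokines and 5 of 12 inflammatory enzymes lower and 0 higher. Among all 12877 genes of that fit 1.13% were higher and 1.78% lower, 2.9% in all. The cytokines were Il1a, Il1b, Il1rn and Csf3 and the chemokines Ccl3, Ccl4 and Cxcl16. The enzymes and effectors were Saa3, Ptgs2, Sod2, Acod1 and Lcn2. Without the 2 doubted libraries, where 0.392% of 18347 genes were higher and 0.354% lower (0.747% in all), 2 of 18 cytokines, 0 of 14 chemokines and 3 of 16 enzymes were lower.

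Regulators of the LPS signal held no call. In the NF-kB list 0 of 23 tested members passed, with a median of -0.10, although Nfkbiz, the inducible nuclear inhibitor-like cofactor of NF-kB, had 127.9, 171.8 and 148.6 CPM with 10 µM melatonin and LPS, against 273.5, 256.3 and 220.5 CPM with LPS (-0.74 ± 0.21, adjusted p = 0.128). Irak3, a brake on Toll-like receptor signalling, had 142.6, 101.9 and 119.2 CPM against 242.3, 154.3 and 204.2 CPM (-0.72 ± 0.20, adjusted p = 0.105). Nfkbia, the inhibitor of NF-kB that reports on its activity, overlapped at 556.3, 537.8 and 580.1 CPM against 626.4, 550.9 and 622.8 CPM (-0.10 ± 0.17). MAP kinase phosphatases and mRNA-decay factors had 0 of 15 past the threshold and a median of -0.28, Toll-like receptors and adaptors 0 of 18 and -0.16, and the interferon response 0 of 33 and -0.03. Calls here too depended on the fit. Without the 2 doubted libraries Nfkbiz (adjusted p = 0.00599), Atf3 (0.00595) and Cd14 (0.0310) were lower, 1 in each list but the interferon list. With only the 6 libraries 2 in each of these lists were lower, among them Nfkbiz (0.00183), Irak3 (0.0134), Atf3 (0.00906) and Cd14 (0.000287). Of all genes 0.354% and 1.78% were lower in these fits. No member was higher in either, and the interferon list held 0 calls.

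The antioxidant list moved in neither direction by the test, with 0 of 30 members past the threshold and a median of 0.18, and 11 members lay apart and higher and 4 apart and lower, beside 8.42% and 8.5% of all tested genes. Gpx4, the peroxidase of lipid peroxides, had 111.6, 126.3 and 122.0 CPM with 10 µM melatonin and LPS, against 83.6, 73.9 and 86.0 CPM with LPS (0.56 ± 0.17, adjusted p = 0.176). Hmox1, heme oxygenase 1, had 186.7, 167.9 and 197.4 CPM against 128.8, 157.9 and 145.7 CPM (0.35 ± 0.24, adjusted p = 0.659). The cystine importer Slc7a11 had 730.6, 734.1 and 735.7 CPM against 845.7, 887.1 and 960.1 CPM (-0.29 ± 0.18, adjusted p = 0.615). Members of the list thus stood on both sides of 0, none past the threshold. In the fit of only the 6 libraries 2 of 29 were higher (Gpx4 and Prdx1) and 3 lower (Slc7a11, Sod2 and Prdx5). Among all genes of that fit 1.13% were higher and 1.78% lower. Without the 2 doubted libraries 0 of 30 were higher and 1 lower (Sod2), beside 0.392% and 0.354% of all genes.

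The lists for proliferation held no call. DNA replication had 0 of 28 members past the threshold, 20 with a fold change above 0 and a median of 0.44, while the mitosis list had 0 of 25 and a median of -0.18. The helicase subunit Mcm6 had 31.6, 48.6 and 35.3 CPM with 10 µM melatonin and LPS, against 12.7, 28.2 and 26.8 CPM with LPS (0.77 ± 0.24, adjusted p = 0.195), and the proliferation marker Mki67 had 275.5, 279.4 and 290.8 CPM against 307.6, 327.8 and 347.0 CPM (-0.22 ± 0.13, adjusted p = 0.578). Cytosolic heat shock chaperones had 0 of 16 past the threshold and a median of -0.30, with Hspa8 at 235.7, 254.9 and 254.0 CPM against 311.7, 412.8 and 354.4 CPM (-0.54 ± 0.14, adjusted p = 0.0974). Glycolysis had 0 of 26 and a median of 0.10, with the lactate dehydrogenase subunit Ldha at 475.2, 562.3 and 505.7 CPM against 339.3, 334.9 and 354.7 CPM (0.58 ± 0.16, adjusted p = 0.118). Hspa8 and Ldha passed without the 2 doubted libraries, at 0.0463 and 0.00196. So did Ccnb2 (0.049, higher), 1 of 25 members of the mitosis list. With only the 6 libraries 2 of 27 replication genes were higher, Mcm3 (0.0321) and Pcna (0.0386). Of all genes 0.392% and 1.13% were higher in these fits. The circadian clock list, of which melatonin is a classical output signal, had 0 of 17 past the threshold, and melatonin reception and binding 0 of 7. Over all 31 lists, 606 distinct genes were tested and 8 called (4 higher, 4 lower), or 1.32%, beside 0.371% of all tested genes. A median below 0 was found in 20 of the 31 lists, and 7 lists held a call. Several uncalled genes given here (Tln1, Cd74, Ctsd, Car2, Csf3, Sod2, Nfkbiz, Irak3, Gpx4, Mcm6, Hspa8, Ldha and Ocstamp), and the called Ucp2, Sdhd, Ftl2-ps and Slc22a17 with Ftl1, were chosen after their values were seen.

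**Figure D4:**
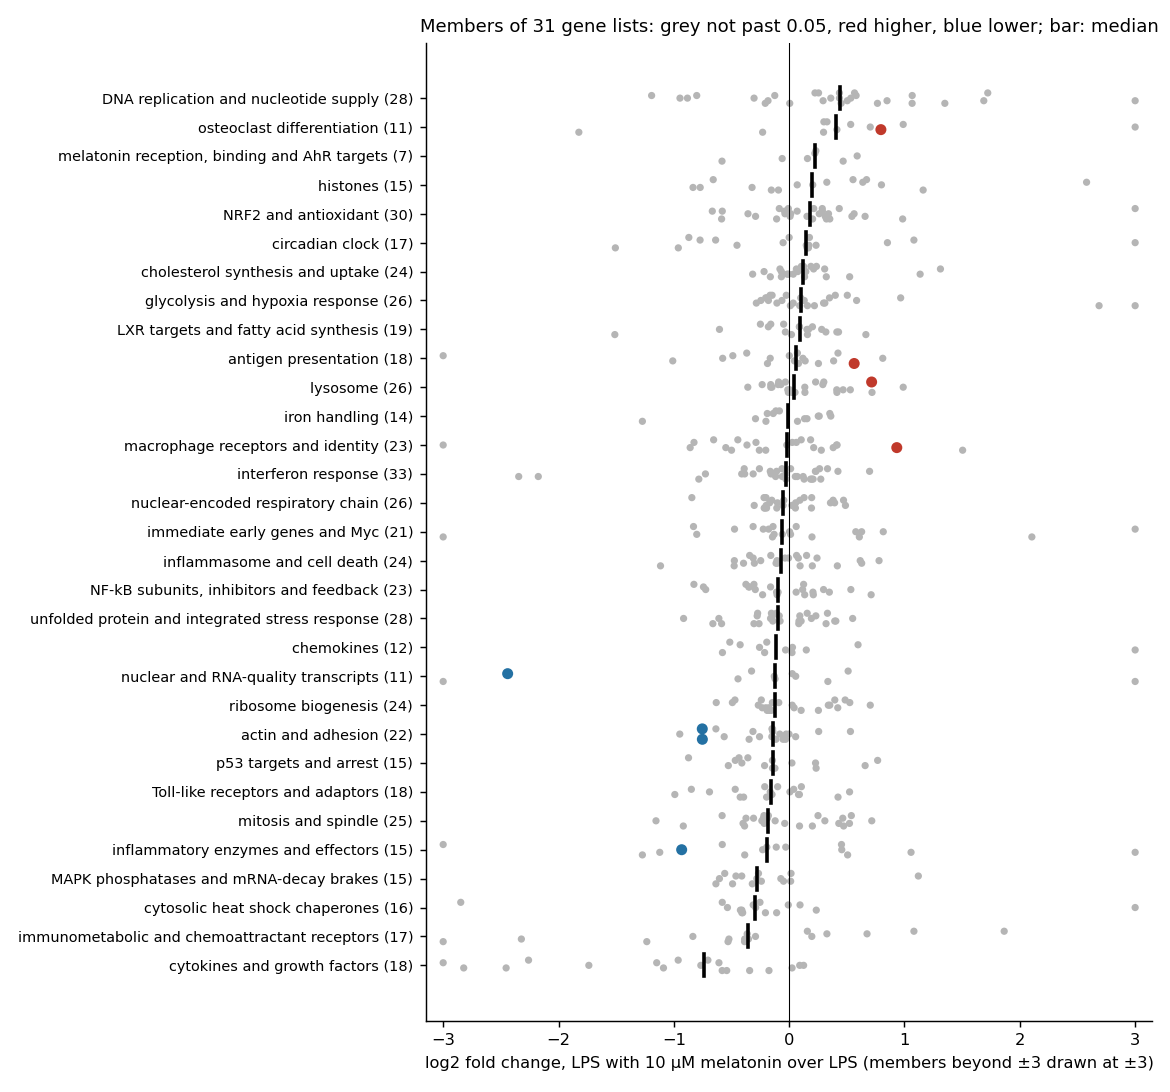
Log2 fold change of LPS with 10 µM melatonin over LPS for every tested member of 31 gene lists, sorted by the list's median (black bar), with the number tested in brackets. Grey members did not pass, red ones rose and blue ones fell; 17 members beyond 3 in either direction are drawn at 3. The medians run from -0.74 for cytokines to 0.44 for DNA replication.

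The LPS response was then followed as a whole, with its genes taken from libraries outside the comparison. Between LPS with 0.1 µM melatonin and 0.1 µM melatonin alone, 789 genes were at least 2-fold higher and 866 at least 2-fold lower past the threshold; without the fold limit 7.95% of all genes were higher and 7.71% lower, 15.7% in all. Of the 789 LPS-induced genes, 0 were higher and 4 lower with 10 µM melatonin, where 0.194% of all tested genes were higher and 0.177% lower, and their median log2 fold change was -0.12, with 63.1% below 0, beside 0 and 49.7% for all tested genes. Of the 866 LPS-repressed genes 10 were higher and 1 lower, with a median of 0.08 and 42.6% below 0. The induced genes together summed to 137771.2 to 140065.7 CPM in the 10 µM libraries and 151182.3 to 153248.5 CPM in the LPS libraries. The repressed genes together made up 4.5 to 4.54% of counts in the 10 µM libraries and 4.65 to 4.77% in the LPS libraries. Their total was thus lower with melatonin, although their median log2 fold change lay above 0. In the fit of only the 6 libraries 18 of 780 induced genes were higher (2.31%) and 71 lower (9.1%), beside 1.13% higher and 1.78% lower among all genes. Without the 2 doubted libraries 4 of 788 were higher (0.508%) and 16 lower (2.03%), beside 0.392% and 0.354% among all genes. Of the repressed genes, 19 of 866 were higher (2.19%) and 7 lower (0.808%) in that fit. With only the 6 libraries 12 of 780 repressed genes were higher (1.54%) and 8 lower (1.03%), near the 1.13% and 1.78% of all genes.

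Since LPS with melatonin at the other doses was compared with the same 3 LPS libraries, the doses were set side by side by level. Each dose against those libraries gave 231 calls at 0.1 µM (1.36%, with 0.653% higher and 0.706% lower), 104 at 1 µM (0.612%, 0.294% and 0.318%), 63 at 10 µM, 201 at 100 µM (1.18%, 0.636% and 0.547%) and 1282 at 1000 µM (7.55%, 2.84% and 4.71%). The count was thus lowest at 10 µM, and whether the counts differ was not tested. Saa3 averaged 563.7 ± 49.4 CPM with LPS and no melatonin, and 398.7 ± 2.50, 398.7 ± 6.90, 295.4 ± 8.90, 233.5 ± 9.85 and 13.2 ± 5.52 CPM with LPS and 0.1, 1, 10, 100 and 1000 µM melatonin (SD, n = 3 each). The levels at 0.1 and 1 µM could not be told apart, and each further dose lay below the one before. Il1b averaged 299.4 ± 29.3 CPM without melatonin and 92.7 ± 0.114, 140.1 ± 22.3, 89.8 ± 10.1, 46.5 ± 4.62 and 6.07 ± 4.55 CPM over the same rising doses, so that 0.1 and 10 µM differed by less than the SD at 10 µM. Odc1 averaged 245.0 ± 16.6 CPM without melatonin and then 190.2 ± 12.2, 164.0 ± 28.1, 138.2 ± 7.23, 135.5 ± 6.35 and 103.0 ± 11.2 CPM, with 10 and 100 µM alike within their SD.

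Nfatc1 had its highest level at 100 µM and its lowest at 1000 µM, with 271.1 ± 21.0 CPM without melatonin and 373.4 ± 33.0, 432.8 ± 72.3, 470.5 ± 29.2, 674.2 ± 39.8 and 125.3 ± 25.9 CPM from 0.1 to 1000 µM. Its libraries at 1 and 10 µM overlapped. B2m had its highest level at 10 µM, with 485.3 ± 33.9 CPM without melatonin and 628.9 ± 15.4, 591.8 ± 21.1, 717.3 ± 29.8, 592.0 ± 44.8 and 502.4 ± 116.9 CPM from 0.1 to 1000 µM. Mt1 had its lowest level there, with 115.4 ± 9.05 CPM without melatonin and 108.9 ± 18.0, 84.5 ± 7.07, 64.6 ± 7.74, 90.1 ± 15.6 and 141.6 ± 28.4 CPM in the same order. Against the mean of the groups with 0.1, 1 and 100 µM and LPS, neither differed past the threshold, with 0.25 ± 0.11 for B2m (adjusted p = 0.791) and -0.54 ± 0.17 for Mt1 (0.643).

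**Figure D5:**
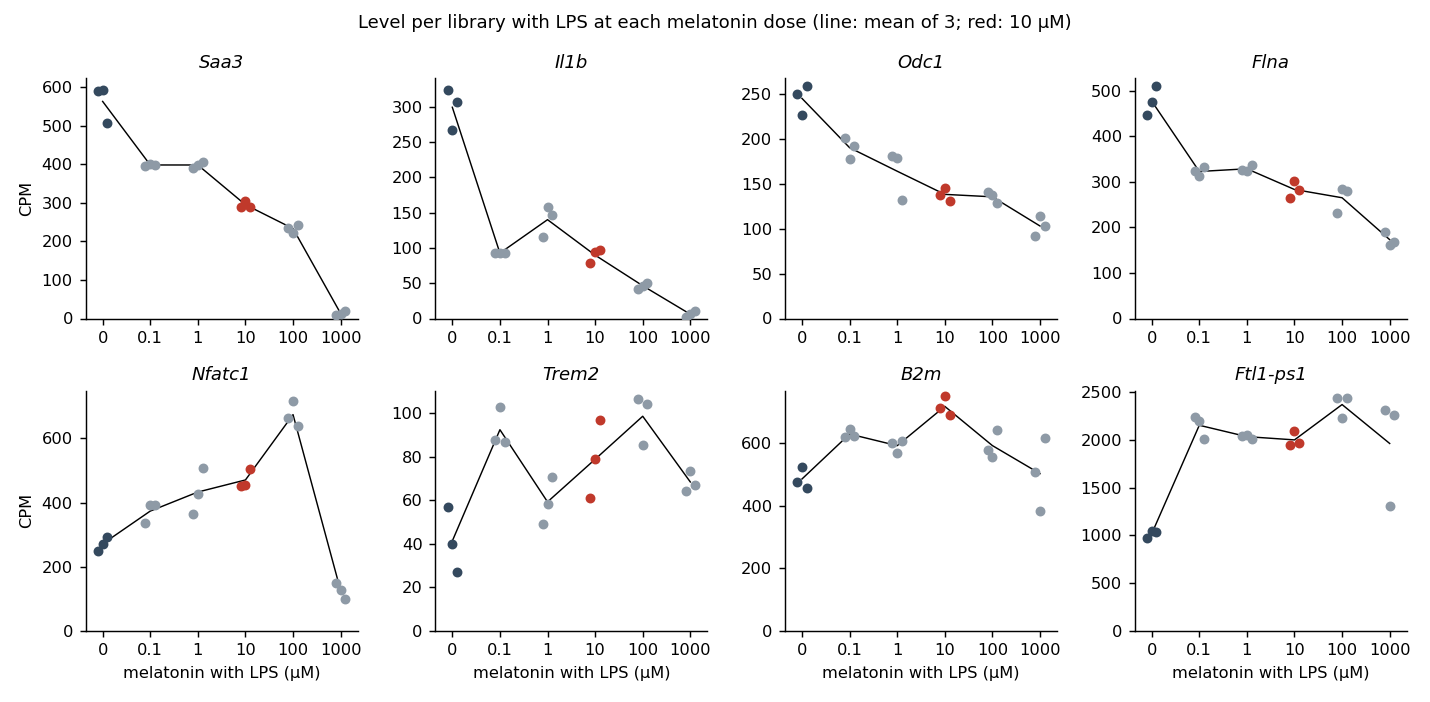
CPM in each library with LPS at melatonin doses of 0, 0.1, 1, 10, 100 and 1000 µM, on an axis of categories, for 8 genes. Points are libraries, the line joins means of 3, and red marks 10 µM. Saa3, Il1b, Odc1 and Flna are highest without melatonin and lowest at 1000 µM, and Nfatc1 peaks at 100 µM.

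Over all genes, LPS with 10 µM melatonin differed from the mean of LPS with 0.1, 1 and 100 µM melatonin in 2 of 16988 genes (0.0118%), both higher, with 1011 at an unadjusted p below 0.05 in edgeR and likewise 2 calls in DESeq2. Both are pseudogenes that stood high in 1 library. Gm5045 had 151.5, 5.16 and 11.9 CPM and Gm4468 had 80.0, 3.38 and 1.78 CPM in replicates 1, 2 and 3 of LPS with 10 µM melatonin. Without replicate 1, 0 genes passed. A p that misses the threshold does not show that these doses act alike.

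The highest dose stood apart from 10 µM. Between LPS with 10 µM and LPS with 1 mM melatonin 904 genes passed (5.32%), 620 higher (3.65%) and 284 lower (1.67%) with 10 µM. Of the 789 LPS-induced genes, 235 were higher and 7 lower with 10 µM than with 1 mM, with a median log2 difference of 0.56. Saa3 had 290.2, 305.7 and 290.4 CPM with 10 µM melatonin and LPS, against 8.28, 12.1 and 19.2 CPM with 1 mM and LPS (4.51 ± 0.25, adjusted p = 3.38e-17). Nfatc1 had 451.4, 455.8 and 504.1 CPM against 149.7, 127.9 and 98.2 CPM (1.91 ± 0.19, adjusted p = 1.12e-09), and Il1b 78.3, 93.7 and 97.4 CPM against 1.69, 5.76 and 10.8 CPM (3.92 ± 0.55, adjusted p = 2.54e-06). Flna was higher by 0.71 ± 0.12 and Mt1 lower by 1.13 on the log2 scale (SE 0.20).

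By the rule for named genes, the macrophage lectin Siglec1 was at 26.3, 30.1 and 28.5 CPM with 10 µM melatonin and LPS and 0, 0 and 1.60 CPM with 1 mM and LPS (5.88 ± 0.95, adjusted p = 3.55e-05). The granulocyte colony-stimulating factor receptor Csf3r had 9.79, 1.07 and 7.13 CPM, with 0 counts in all 3 libraries with 1 mM. The osteoclast protease Ctsk had 10.1, 9.07 and 8.61 CPM, with 0.460, 0 and 0.200 CPM at 1 mM, and the gelatinase Mmp9 and Tmem132a were also near 0 there. On the other side the immediate early factor Fosb had 0.803, 0 and 0 CPM with 10 µM melatonin and LPS and 4.14, 4.75 and 8.38 CPM with 1 mM. Man1a, a mannosidase of glycan trimming, had 1.12, 3.02 and 0.445 CPM against 13.5, 18.4 and 16.2 CPM (-3.39 ± 0.67, adjusted p = 0.000715), and Ccsap, Chd3os and Tmem51 were also lower.

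Whether melatonin at 10 µM did the same without LPS was tested as an interaction, the effect with LPS minus the effect of 10 µM melatonin over solvent. It passed for 4 genes (0.0235%), 3 with a higher (0.0177%) and 1 with a lower (0.00589%) effect under LPS. Without LPS, 10 µM melatonin against solvent gave 14 calls (0.0824%), 2 higher (0.0118%) and 12 lower (0.0706%). Tnf was one of the lower, at 104.9, 99.8 and 95.0 CPM with 10 µM melatonin and 172.4, 188.8 and 159.3 CPM with solvent (-0.80 ± 0.14, adjusted p = 0.00227), and so was Nfkbia at 71.9, 90.2 and 75.3 CPM against 216.1, 180.9 and 136.3 CPM (-1.17 ± 0.17, adjusted p = 0.000123). The other doses of melatonin alone had means below solvent as well, from 76.3 to 110.0 CPM for Tnf and from 74.3 to 102.6 CPM for Nfkbia. Acod1 had 0.259, 0 and 0.892 CPM with 10 µM melatonin alone and 9.68, 4.71 and 10.0 CPM with solvent, while under LPS it was 1042.4, 1132.3 and 1159.2 CPM with melatonin and 1301.5, 1519.7 and 1533.5 CPM without (interaction 4.03 ± 0.72, adjusted p = 0.00812). Oasl2, an interferon-induced antiviral gene, had 0, 0 and 0.149 CPM with 10 µM melatonin alone and 5.44, 8.01 and 4.20 CPM with solvent, and overlapped between groups under LPS (6.10 ± 1.04, adjusted p = 0.00486). Slamf9, a macrophage surface receptor, had 0, 0 and 0.149 CPM against 4.59, 5.50 and 2.55 CPM without LPS, and 9.15, 16.7 and 6.68 CPM against 4.85, 6.11 and 6.32 CPM with LPS (6.93 ± 1.27, adjusted p = 0.0106). For Oasl2 and Slamf9 a single read was found in the 3 libraries of melatonin alone, so the size of the interaction depends on the model. The pseudogene Gm12096 went the other way, with 65.6, 75.7 and 71.9 CPM against 32.8, 31.3 and 37.2 CPM without LPS, and 81.6, 94.3 and 88.3 CPM against 126.2, 128.7 and 128.3 CPM with LPS (-1.61 ± 0.26, adjusted p = 0.00463). None of the 63 genes called under LPS was among these 4. Of the 30 lower calls, 4 were also called lower by 10 µM melatonin without LPS: Lars2 (-1.48 ± 0.31), Gm15564 (-2.16 ± 0.39), CT010467.1 (-1.46 ± 0.26) and Gm23935 (-1.48 ± 0.22). The rRNA share without LPS was 0.247 to 0.470% with 10 µM melatonin and 0.752 to 1.18% with solvent. Of the 33 higher calls, 0 were called without LPS.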

How the data were processed

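RNA of RAW264.7 cells was sequenced in 36 libraries, 12 groups of 3. The authors deposited raw counts of reads per gene for each library, and per the submitters' processing notes adapters were trimmed with cutadapt, reads were counted with featureCounts and the build was mm10; the aligner, the strand setting and the annotation release are not given in the sources used here. A second deposited table of FPKM values, also made by the authors, gave gene symbols and biotypes only. Positions come from an annotation of GRCm38 that held 53274 of the gene IDs (99.6%). Counts were tested with edgeR 4.0.16 (R 4.3.3, limma 3.58.1) by the quasi-likelihood F test on all 36 libraries together, 1 coefficient per group, after filterByExpr and TMM scaling, with Benjamini-Hochberg adjustment over the 16988 genes kept and a threshold of 0.05. The SE is the log2 fold change divided by the square root of F.

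Named genes were up to 15 highest and 15 lowest fold changes among the calls (at least 5 CPM in the higher group, groups not overlapping, no clone-named genes, pseudogenes or mitochondrial genes), up to 3 called genes per list and 14 genes of the LPS response. The other comparisons name up to 5 per direction. The comparison, the gene lists and the tests were chosen with earlier results of these data known. Alternatives were DESeq2 1.42.0, RLE scaling, no filter, a replicate block, leaving out libraries and fits of fewer libraries. The test was tried on simulated counts with 200 changed genes. Replicate numbers do not pair the libraries: deviations of same-numbered libraries of the 2 groups correlated at 0.00622, 0.0189 and 0.00218. One gene that the naming rule selects is not reported here.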

Additional observations from a re-analysis of the deposited data

Results flagged for a closer look

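In 4 genes the effect of 10 µM melatonin differed with and without LPS by a test of the difference itself (edgeR interaction term). The interaction was 6.93 on the log2 scale for Slamf9 (adjusted p = 0.0106), 6.10 for Oasl2 (0.00486), 4.03 for Acod1 (0.00812) and -1.61 for the pseudogene Gm12096 (0.00463). In the first 3 the libraries of 10 µM melatonin alone were lower than those of solvent, and near 0 reads for Slamf9 and Oasl2. The mean with solvent also lay above that of every other dose of melatonin alone. At 0.1, 1, 10, 100 and 1000 µM Acod1 averaged 1.25, 1.60, 0.384, 0.991 and 1.11 CPM, against 8.14 CPM with solvent. Oasl2 averaged 1.96, 2.84, 0.0495, 2.47 and 0.523 CPM, against 5.88 CPM. Slamf9 averaged 3.58, 1.76, 0.0495, 1.23 and 2.36 CPM, against 4.21 CPM. Groups of 3 libraries are too small for a test of a single outlying library.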

How the results depend on the processing

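The 63 calls between LPS with 10 µM melatonin and LPS became 129 with no filter on low counts, 137 without the 2 doubted libraries, 374 with only the 6 libraries, 152 in DESeq2 and 17 to 40 when a library was left out. Chosen after seeing the data, the rRNA share as a covariate gave 2 calls and protein-coding genes alone gave 28. With the replicate number as a block there were 53 calls, all among the 63, and Mt1 was lost (adjusted p = 0.0627). Against the other doses, the 2 calls became 16 with no filter, 0 with the replicate block, 4 without the 2 libraries, 20 with only the libraries compared and 0 to 5 when a library was left out. Against 1 mM, the 904 calls became 433 with only the libraries compared and 589 to 908 when a library was left out. The 4 interactions became 60 with no filter, 64 without the 2 libraries, 161 with only the libraries compared, 67 in DESeq2 and 1 to 10 when a library was left out. The cause of these changes was not tested. Of 587 values of named genes in the alternatives, 423 kept their side of the threshold, 150 lost the call and 14 gained it. A change of sign was counted only where the gene passed in the main fit or the alternative, and 0 were found.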
